A study of Mus musculus with 24 samples.

Results

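The guanylate-binding proteins (GBPs) and the immunity-related GTPases (IRGs) are families of GTPases made by many cell types after exposure to interferon. The genes described here are Gbp2, Gbp3, Gbp5, Gbp6, Gbp7, Gbp9, Irgm1, Irgm2, Igtp and Iigp1, taken by their symbols, 10 of the 25229 gene symbols counted. RNA sequencing was carried out on ID8 mouse ovarian cancer cells, a line derived from ovarian surface epithelium, in which Trp53 is knocked out in every group. Cells received DMSO (the solvent control), 750 nM cisplatin (a DNA-crosslinking drug), 2.5 uM AU-15330 (a PROTAC, a molecule that directs SMARCA4 and its paralog SMARCA2 to degradation), or both drugs, for 6 days, with 6 libraries in each of the 4 groups. All libraries carry the same knockout in 1 cell line, and the labels do not say whether replicates were separate cultures, so the p-values measure the spread between these libraries, which may be technical. The comparisons ask how each drug alone changes these transcripts, and what degradation of SMARCA4 does in cells that also receive cisplatin.

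GBPs are large GTPases of the dynamin superfamily that assemble on the membranes of vacuoles holding parasites or bacteria and on the surface of bacteria that escape into the cytosol. The IRGs fall into effectors such as Iigp1, which bind and disrupt the vacuole, and the regulators Irgm1, Irgm2 and Igtp, which sit on the cell's own membranes and hold the effectors inactive there. Interferon-gamma drives both families through promoter elements called GAS, and type I interferon through interferon-stimulated response elements (ISREs), which are bound by a complex that holds Stat2 and Irf9 and can also be bound by Irf1.

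Library totals ran from 17592588 to 25260009 counts. Of 9 genes typical of ovarian surface and mesothelial cells, 8 were in the table (Muc16 was not analysed here). Their summed level ran from 5354 to 8424 CPM (counts scaled to library size) with DMSO, from 6068 to 7274 with cisplatin, from 3623 to 4221 with AU-15330 and from 4903 to 5868 with the combination. Of these 8 genes, 7 were called lower with AU-15330 than with DMSO (median log2 fold change of the 8 -2.29, against 37.2% of all tested genes called lower) and 7 lower in the combination than with cisplatin (median -2.01, against 32.7%). Krt7 passed the filter on low counts only through the cisplatin libraries. The exception in both comparisons was Vim, a mesenchymal filament gene that holds most of the sum in these groups (2791 CPM with AU-15330 and 4052 with both drugs). Krt19 averaged 1783 CPM with DMSO and 7.0 with AU-15330, Upk3b 45.3 and 0.494, Msln 524 and 117, Krt18 646 and 122, and Wt1, which stayed above 490 CPM in every library, 845 and 614. Of 12 genes of immune cells, the pan-leukocyte gene Ptprc had at most 5 counts in any library, Ncr1 had 0 in all of them, and only Cd68, a lysosomal gene of macrophages that other cells also express, passed the filter on low counts. The summed level of these 12 genes ran from 6.73 to 19.1 CPM with DMSO, from 7.30 to 13.7 with cisplatin, from 17.3 to 53.6 with AU-15330 and from 24.4 to 42.7 with both drugs, mostly from Cd68. The part of either marker list in the results below was not tested.

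By the GENCODE vM21 annotation of mm10, all 10 genes are protein coding. Gbp5 (chr3:142493978-142522344), Gbp7 (chr3:142530342-142550149), Gbp3 (chr3:142560026-142573209) and Gbp2 (chr3:142620602-142638008) lie on the plus strand in the cluster of chromosome 3, with Gbp2b between the last pair. Gbp9 (chr5:105077630-105139539) and Gbp6 (chr5:105270702-105293698) lie on the minus strand in the cluster of chromosome 5. Irgm1 (chr11:48861968-48871683, minus strand), Igtp (chr11:58199556-58207591, plus strand) and Irgm2 (chr11:58199618-58222782, plus strand) are on chromosome 11, where the exons of Igtp and Irgm2 share 162 bases of the same strand.

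Because all 10 genes were called higher with cisplatin, the stretches just before their RefSeq start sites are shown. RefSeq promoter windows of GRCm38.p6 (250 bases before to 50 after the start) matched 7 of the 10 genes, and Gbp6, Gbp9 and Iigp1 had none. The search, on both strands, was for the core of the ISRE, GAAANNGAAA, and for the GAS motif, TTCNNNGAA. Matches to either are in capitals, the rest is in lower case, and each sequence runs 5′ to 3′ on the strand of its gene and ends at the last base before the start.
Gbp2: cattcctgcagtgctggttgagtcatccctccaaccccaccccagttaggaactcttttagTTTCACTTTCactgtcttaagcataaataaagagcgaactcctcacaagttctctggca
Gbp3: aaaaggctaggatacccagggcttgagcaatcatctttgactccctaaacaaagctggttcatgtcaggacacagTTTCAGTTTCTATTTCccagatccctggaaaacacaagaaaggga
Gbp5: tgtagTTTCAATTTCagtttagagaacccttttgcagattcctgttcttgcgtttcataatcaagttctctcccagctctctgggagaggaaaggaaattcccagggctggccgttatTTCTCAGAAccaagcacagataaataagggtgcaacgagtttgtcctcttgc
Gbp7: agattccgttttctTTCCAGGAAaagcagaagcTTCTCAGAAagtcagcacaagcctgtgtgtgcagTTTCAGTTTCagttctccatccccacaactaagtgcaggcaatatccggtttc
Irgm1: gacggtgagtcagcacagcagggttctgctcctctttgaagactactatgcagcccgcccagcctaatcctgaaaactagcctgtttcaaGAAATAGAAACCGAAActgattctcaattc
Irgm2: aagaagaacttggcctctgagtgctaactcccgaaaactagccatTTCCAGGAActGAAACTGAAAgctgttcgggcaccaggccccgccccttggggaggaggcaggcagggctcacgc
Igtp: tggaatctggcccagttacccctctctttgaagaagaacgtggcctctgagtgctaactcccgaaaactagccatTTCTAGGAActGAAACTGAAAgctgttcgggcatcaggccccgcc
The stretch of Gbp2 is chr3:142620543-142620662, that of Gbp3 chr3:142559924-142560043, that of Gbp5 chr3:142496764-142496933 and that of Gbp7 chr3:142530216-142530335, all on the plus strand. The stretches of Irgm2 and Igtp, chr11:58214857-58214976 and chr11:58199436-58199555 on the plus strand, carry the GAS match followed closely by the ISRE core in the same arrangement, and that of Irgm1 is chr11:48871421-48871540 on the minus strand. RefSeq starts can differ from the GENCODE starts given above. The stretches of Gbp5, Irgm1 and Irgm2 lie inside the genes as GENCODE places them, and those of Gbp2 and Gbp3 cross the GENCODE start.

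The ISRE core was in the windows of all 7 genes (in 7 of 8 windows, since Gbp3 has an additional one), against 3.44% of 32851 promoter windows of the same 300 bases. Its match nearest to the start ended between 15 bases (Irgm1) and 156 bases (Gbp5) upstream. The GAS motif was in the windows of Gbp5, Gbp7, Irgm2 and Igtp, against 8.30% of all windows, and no GAS match overlapped an ISRE match. Of 7 windows of other GTPases of these families, Irgq included, 5 held the ISRE core (Gbp2b, Gm12250, Tgtp1, Tgtp2 and 9930111J21Rik1) and 3 the GAS motif (Gm12250, Tgtp1 and Tgtp2). The match of 9930111J21Rik1 lies after the start. Windows on chromosome 18, where the IRG gene Gm4951 lies, were left out of the search. A match describes the letters only, and binding was not measured.

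All 10 genes passed the filter on low counts, 1 of them (Iigp1) only through the cisplatin libraries, so that it had to be lower in the other groups. All 10 were called higher with cisplatin than with DMSO, against 26.0% of the 12941 genes tested. With AU-15330 alone 9 of them were called higher, against 36.2% of all genes, while Gbp6 had a log2 fold change of 0.43 that did not pass the test. With both drugs compared with cisplatin, Gbp2 rose (1 gene, against 35.4% of all), 7 genes fell (against 32.7%) and Gbp7 and Igtp passed in neither direction. The largest falls were 40.5-fold for Iigp1 and 29.1-fold for Gbp6, and between the combination and AU-15330 alone neither gene passed the edgeR test, though DESeq2 called Iigp1 higher. In these bulk libraries, fewer cells expressing a gene and less RNA of it in each cell cannot be told apart. The plot of levels in each library shows these patterns for every gene.

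**Figure D1:**
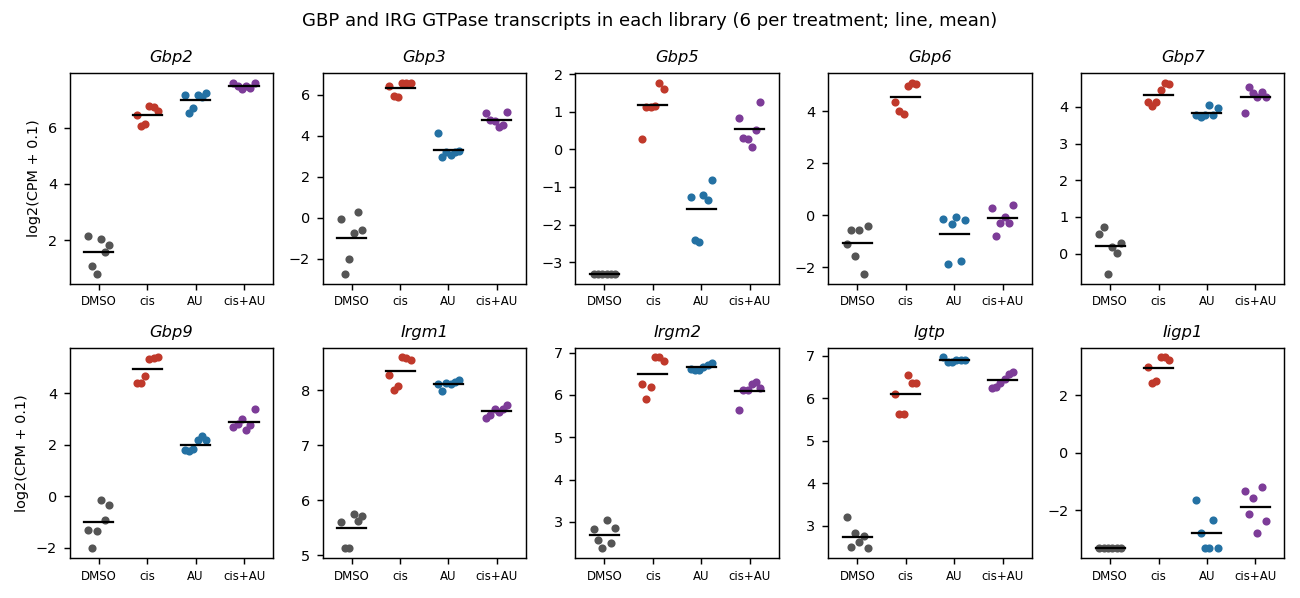
Level of each of the 10 GTPase genes in each of the 24 libraries, as log2(CPM + 0.1), in cells given DMSO, cisplatin (cis), AU-15330 (AU) or both (cis+AU); each point is 1 library, the line is the mean of the 6 plotted values, and the vertical axes differ between genes and do not start at a common value. Gbp6 and Iigp1 are high with cisplatin only, Gbp2 is highest with both drugs, and Irgm1, Irgm2 and Igtp are high in all 3 treated groups.

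Irgm1 is the IRG regulator that also bears on autophagy and mitochondria. Its level ran from 34.8 to 53.6 CPM (median 49.1) with DMSO, from 255 to 387 (341) with cisplatin, from 252 to 291 (278) with AU-15330 and from 181 to 211 (197) with both drugs. Every treated library lay above every DMSO library, and every combination library lay below every library given 1 drug. Irgm1 was 7.22-fold higher with cisplatin than with DMSO (log2 fold change 2.85, SE 0.12, edgeR adjusted p = 1.67e-16) and 6.05-fold higher with AU-15330 (2.60, SE 0.12, adjusted p = 1.24e-16). With both drugs it fell by 0.75 on the log2 scale from cisplatin (SE 0.11, adjusted p = 1.11e-06) and by 0.50 from AU-15330 (SE 0.11, adjusted p = 0.000684). It was lower with AU-15330 than with cisplatin by 0.25 on the log2 scale (adjusted p = 0.0381), a call lost without replicate 4, 5 or 6 (adjusted p = 0.147, 0.144 and 0.102), with library totals only (-0.20, adjusted p = 0.112) and with replicates 1 to 3 alone (-0.04, adjusted p = 0.804).

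Irgm2, the regulator found on the Golgi, ran from 5.07 to 8.11 CPM (median 6.42) with DMSO, from 60.0 to 119 (93.5) with cisplatin, from 95.8 to 108 (99.1) with AU-15330 and from 49.6 to 78.3 (70.8) with both drugs. All treated libraries lay above all DMSO libraries, the cisplatin libraries spread over the range of the other treated groups, and the AU-15330 libraries lay close together. The increase was 14.4-fold with cisplatin (log2 fold change 3.85, SE 0.16, edgeR adjusted p = 3.68e-16) and 15.6-fold with AU-15330 (3.96, SE 0.17, adjusted p = 2.85e-17), and the difference between the drugs was 0.11 (SE 0.14, adjusted p = 0.477). That difference was called with replicates 1 to 3 alone (0.47, adjusted p = 0.0112) and was -0.15 with replicates 4 to 6 alone (adjusted p = 0.084). With both drugs Irgm2 fell by 0.42 from cisplatin (SE 0.14, adjusted p = 0.00957), with overlapping groups, and by 0.54 from AU-15330 (SE 0.14, adjusted p = 0.00337), with groups apart. The call against cisplatin was lost with replicates 1 to 3 alone (-0.18, adjusted p = 0.318).

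Igtp, also called Irgm3, is the regulator of the endoplasmic reticulum membrane. Its level ran from 5.44 to 9.22 CPM (median 6.39) with DMSO, from 49.4 to 94.2 (75.5) with cisplatin, from 115 to 126 (119) with AU-15330 and from 75.8 to 98.8 (84.7) with both drugs. It was highest with AU-15330, where every library lay above every library of the other groups. The increase over DMSO was 10.7-fold with cisplatin (log2 fold change 3.42, SE 0.15, edgeR adjusted p = 6.62e-16) and 17.9-fold with AU-15330 (4.16, SE 0.15, adjusted p = 2.67e-18). With both drugs it fell by 0.47 from AU-15330 (SE 0.13, adjusted p = 0.00544). Against cisplatin the log2 fold change of the combination was 0.27 (SE 0.13, adjusted p = 0.0647), and it passed the test without replicate 4 (0.36, adjusted p = 0.0297), with library totals only (0.34, adjusted p = 0.0205), with the replicate block (0.29, adjusted p = 0.0288) and with replicates 1 to 3 alone (0.45, adjusted p = 0.0262). In the annotation, 8.54% of the 70-base stretches of Igtp transcripts, the length of a read, also occur in Irgm2, so part of the reads of this pair could not be assigned to 1 gene.

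Iigp1 (chr18:60376027-60392634, plus strand), also called Irga6, is the IRG effector among the 10 genes. It had 0 counts in all 6 DMSO libraries. With cisplatin it had 116 to 249 counts per library (median 198.5, 5.27 to 9.95 CPM), with AU-15330 0 to 5 counts (8 in all, from 3 libraries) and with both drugs 1 to 7 counts (25 in all). Cisplatin thus gave at least 321-fold more than DMSO, where the bound takes 3 counts over the 6 DMSO libraries as the floor, and no library outside the cisplatin group had more than 7 counts. With both drugs Iigp1 was 40.5-fold lower than with cisplatin (log2 fold change -5.34, SE 0.36, edgeR adjusted p = 2.39e-11). Against DMSO it was at least 7.61-fold higher with both drugs (adjusted p = 0.000553) and at least 2.46-fold higher with AU-15330 (adjusted p = 0.0281), where the groups overlap and the call was lost without replicate 1 (adjusted p = 0.143) or replicate 5 (0.0621), and with replicates 1 to 3 or 4 to 6 alone (0.072 and 0.215). Between the combination and AU-15330 the log2 fold change was 1.55 (SE 0.69, adjusted p = 0.0788), and it passed the test without replicate 1 (2.33, adjusted p = 0.0357) and with DESeq2 (1.62, adjusted p = 0.0298).

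Among the GBPs, Gbp2 carries a C-terminal prenylation motif and is loaded onto parasite vacuoles. Its level ran from 1.64 to 4.33 CPM (median 3.20) with DMSO, from 66.7 to 107 (91.4) with cisplatin, from 91.0 to 149 (139) with AU-15330 and from 163 to 192 (176) with both drugs. Every combination library lay above every other library. The increase over DMSO was 28.9-fold with cisplatin (log2 fold change 4.85, SE 0.19, edgeR adjusted p = 7.67e-17), 41.4-fold with AU-15330 (5.37, SE 0.19, adjusted p = 1.69e-18) and 58.0-fold with both (5.86, SE 0.20, adjusted p = 5.96e-19). The combination was 2.01-fold above cisplatin (1.01, SE 0.15, adjusted p = 1.8e-06) and 1.40-fold above AU-15330 (0.48, SE 0.15, adjusted p = 0.0111). In the fit of all libraries, Gbp2 was the only one of the 10 genes called higher with both drugs than with each drug alone. The call against AU-15330 was lost with replicates 1 to 3 alone (0.62, adjusted p = 0.0616) and with a required fold change above 1.5 (adjusted p = 1.0).

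Gbp5, the other GBP here with a prenylation motif, is known for its part in the assembly of the NLRP3 inflammasome. It had 0 counts in all 6 DMSO libraries, 25 to 83 counts per library with cisplatin (median 48.5, 1.12 to 3.32 CPM), 2 to 9 with AU-15330 (median 6.5) and 21 to 49 with both drugs (median 27). All treated libraries lay above the DMSO libraries, and the AU-15330 libraries lay below the other treated ones. Against the floor of 3 counts over the DMSO libraries, Gbp5 was at least 92.2-fold higher with cisplatin (edgeR adjusted p = 1.41e-09), at least 10.1-fold with AU-15330 (adjusted p = 5.99e-05) and at least 56.6-fold with both (adjusted p = 3.74e-09). The combination was 5.43-fold above AU-15330 (log2 fold change 2.44, SE 0.37, adjusted p = 2.07e-05). It was below cisplatin by 0.69 on the log2 scale (SE 0.28, adjusted p = 0.0374), a call lost without replicate 2, 3, 4 or 5 (adjusted p = 0.073, 0.0623, 0.103 and 0.163), with library totals only (-0.62, adjusted p = 0.0562) and with replicates 1 to 3 alone (-0.45, adjusted p = 0.347).

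Gbp3 and Gbp7 are the remaining GBPs of chromosome 3, and both proteins are recruited to the vacuole of Toxoplasma gondii. Gbp3 ran from 0.0487 to 1.13 CPM (median 0.525) with DMSO, from 59.4 to 96.1 (89.7) with cisplatin, from 7.62 to 17.4 (9.10) with AU-15330 and from 21.5 to 35.9 (27.2) with both drugs. The 4 groups of Gbp3 did not overlap, and the order was cisplatin, combination, AU-15330, DMSO. Gbp3 was 155-fold higher with cisplatin than with DMSO (log2 fold change 7.28, SE 0.32, edgeR adjusted p = 4.63e-16) and 19.4-fold higher with AU-15330 (4.28, SE 0.33, adjusted p = 7.35e-12). The combination was 2.90-fold below cisplatin (-1.54, SE 0.21, adjusted p = 3.63e-07) and 2.77-fold above AU-15330 (1.47, SE 0.22, adjusted p = 6.23e-06). Gbp7 ran from 0.579 to 1.56 CPM (median 1.07) with DMSO, from 16.1 to 25.1 (19.6) with cisplatin, from 13 to 16.4 (13.7) with AU-15330 and from 14.1 to 23.2 (19.8) with both drugs. Here the 3 treated groups lay close to each other, all above DMSO. Gbp7 rose 18.6-fold with cisplatin (4.22, SE 0.17, adjusted p = 1.67e-16) and 13.1-fold with AU-15330 (3.71, SE 0.17, adjusted p = 3.35e-16). The combination differed from cisplatin by -0.06 (SE 0.13, adjusted p = 0.691) and was above AU-15330 by 0.45 (SE 0.13, adjusted p = 0.00906), a call lost with replicates 1 to 3 alone (0.49, adjusted p = 0.122). Of the 70-base stretches of Gbp7 transcripts, 11.5% also occur in Gm43802 or Gbp3.

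Gbp9 and Gbp6, from the cluster on chromosome 5, are GBPs whose proteins are also recruited to that vacuole. Gbp9 ran from 0.146 to 0.806 CPM (median 0.370) with DMSO, from 20.8 to 42.5 (32.6) with cisplatin, from 3.26 to 4.95 (3.94) with AU-15330 and from 5.86 to 10.3 (6.78) with both drugs. Its 4 groups were apart in the same order as those of Gbp3. Gbp9 rose 69.2-fold with cisplatin (log2 fold change 6.11, SE 0.28, edgeR adjusted p = 1.74e-15) and 8.62-fold with AU-15330 (3.11, SE 0.30, adjusted p = 9.65e-10), and the combination was 4.34-fold below cisplatin (-2.12, SE 0.20, adjusted p = 6.86e-10) and 1.85-fold above AU-15330 (0.89, SE 0.21, adjusted p = 0.00168). Gbp6 ran from 0.108 to 0.651 CPM (median 0.477) with DMSO, from 14.9 to 34.2 (26.0) with cisplatin, from 0.176 to 0.858 (0.741) with AU-15330 and from 0.483 to 1.21 (0.791) with both drugs. Only the cisplatin libraries of Gbp6 stood apart from the DMSO libraries. It was 57.2-fold higher with cisplatin than with DMSO (5.84, SE 0.33, adjusted p = 1.32e-13) and 29.1-fold lower with both drugs than with cisplatin (-4.86, SE 0.30, adjusted p = 1.1e-13). The log2 fold change of AU-15330 was 0.43 (SE 0.45, adjusted p = 0.384), and that of the combination against AU-15330 was 0.54 (SE 0.39, adjusted p = 0.279). The combination was above DMSO by 0.97 (SE 0.42, adjusted p = 0.0388), and this call was lost without replicate 1, 3, 4, 5 or 6 (adjusted p = 0.15, 0.0707, 0.0513, 0.0713 and 0.0625), without the filter on low counts (0.0527) and with replicates 1 to 3 or 4 to 6 alone (0.139 and 0.0715). Of the 70-base stretches of Gbp6 transcripts, 68.0% also occur in Gm43302, Gbp10 or Gbp11, and Gm43302 is not a row of the counts, so the counts of Gbp6 depend on how shared reads were assigned.

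Counted over the 10 genes, the libraries with cisplatin lay above those with DMSO without overlap for all 10, against 14.2% of tested genes, and the median log2 fold change was 5.35, with -0.004 over all tested genes. With AU-15330 the groups were apart for 8 genes, against 24.5%, and the median was 3.83. In the combination against cisplatin, 1 gene was higher and 5 were lower without overlap (24.7% and 25.5% of all genes), with a median of -0.72. Against AU-15330 the combination gave 5 genes called higher (22.2% of all) and 3 called lower (19.5%), with a median of 0.51. The 3 that fell are the regulators Irgm1, Irgm2 and Igtp, each without overlap between the groups (13.6% of all genes), and the 5 that rose are all GBPs. Against DMSO the combination gave 10 genes called higher (36.8% of all), 9 of them apart (24.9%), with a median of 4.08. With AU-15330 compared with cisplatin, 2 genes were called higher (Gbp2 and Igtp, against 35.8% of all) and 7 lower (37.3%), with 1 and 5 apart (27.7% and 29.7%). The comparisons with DMSO share the DMSO libraries, and those of the combination share its libraries.

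**Figure D2:**
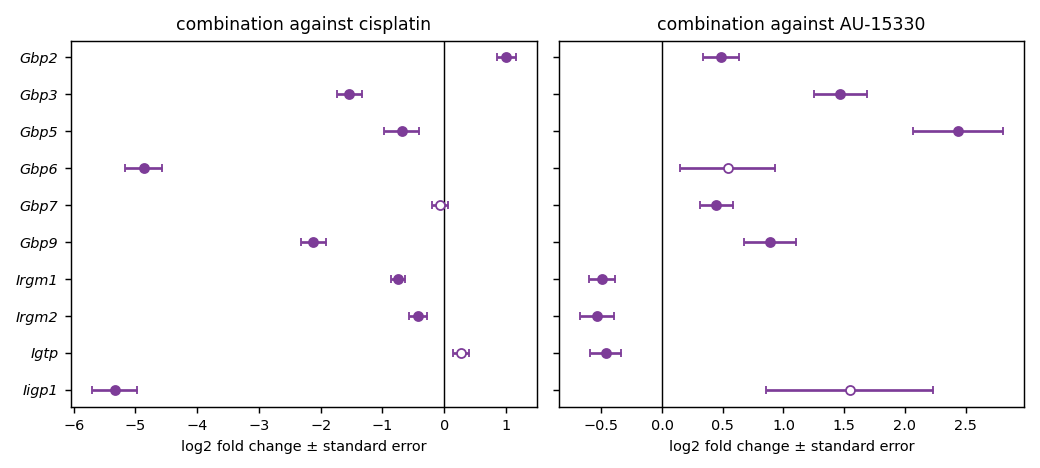
Fitted log2 fold change of each GTPase gene in the combination against cisplatin (left) and against AU-15330 (right); points are edgeR estimates from 6 libraries a group, bars are 1 standard error to each side, filled points passed the adjusted p threshold of 0.05 and open points did not, and the horizontal axes of the panels differ. Left, Gbp2 lies at 1.01 and Iigp1 at -5.34; right, the GBPs and Iigp1 lie above 0 and Irgm1, Irgm2 and Igtp below 0.

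The change that AU-15330 made in cells given cisplatin was compared with the change it made without cisplatin, as the interaction term of the edgeR fit. It was negative and called for all 10 genes, against 15.8% of all tested genes called lower, with a median of -4.81 on the log2 scale. It ran from -3.35 for Irgm1 (SE 0.16, adjusted p = 9.91e-15) to -5.81 for Gbp3 (SE 0.39, adjusted p = 1.22e-11) among the 8 genes with counts in DMSO. For Gbp5 and Iigp1, with 0 counts in DMSO, the fitted values of -6.20 and -8.89 depend on the prior count. Iigp1 also passed the filter on low counts only through the cisplatin libraries, and that selection favoured a negative term. For Gbp6 the term was -5.30: its log2 fold change with AU-15330 was 0.43 without cisplatin (edgeR adjusted p = 0.384) and -4.86 with it. For Gbp2, the gene highest with both drugs, the term was -4.37 (SE 0.24, adjusted p = 1.95e-13): AU-15330 raised it 41.4-fold without cisplatin and 2.01-fold with it.

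The makeup of the family's RNA also differed between treatments. Summed over the 10 genes, the level ran from 50.1 to 74.7 CPM with DMSO, from 552 to 909 with cisplatin, from 578 to 697 with AU-15330 and from 555 to 643 with both drugs. The summed levels of the 3 treated groups overlapped. Irgm1 held 70.9% of the sum with DMSO, 43.9% with cisplatin, 42.4% with AU-15330 and 33.4% with both, while Gbp2 held 4.79%, 11.8%, 19.5% and 30.3%. Per kilobase of annotated exon, Irgm1 had the highest mean level with DMSO (7.86 ± 1.46 CPM per kb, SD, n = 6) and with cisplatin (56.7 ± 10.4), Igtp with AU-15330 (58.8 ± 1.89, beside 50.6 ± 9.70 for Gbp2) and Gbp2 with both drugs (70.8 ± 4.61). Gbp5 per kilobase averaged 0.343 ± 0.117 with cisplatin, the lowest of the 10 in that group, and with both drugs Iigp1 was lowest at 0.0329 ± 0.0203.

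The cisplatin libraries were not alike in these genes. In each of the 10 genes, the libraries numbered 1 to 3 were the 3 lowest of the 6 cisplatin libraries, which was so for 17.5% of all tested genes, and their summed level was 552 to 693 CPM against 871 to 909 in those numbered 4 to 6. In each of the other groups, this order held for 2 of the 10 genes, against 10.2% of all tested genes with DMSO, 16.3% with AU-15330 and 9.94% with both drugs. The labels name no batch. With replicates 1 to 3 alone, cisplatin against DMSO still gave 10 genes higher, against 17.8% of all genes in that fit, with log2 fold changes from 2.81 (Irgm1) to 7.72 (Gbp3) among the 8 genes with counts in DMSO, and replicates 4 to 6 alone also gave 10, against 26.4%, from 2.87 (Irgm1) to 7.05 (Gbp3). For the combination against cisplatin, replicates 1 to 3 alone gave 2 genes higher (24.4% of all genes) and 5 lower (27.5%), and replicates 4 to 6 alone 1 higher (33.7%) and 8 lower (35.3%). The fall of Irgm2 was called only with replicates 4 to 6 of these subsets (with replicates 1 to 3 it was -0.18, adjusted p = 0.318). In the same comparison, Gbp7 was called lower with replicates 4 to 6 alone (-0.30, adjusted p = 0.00927) and was at 0.15 with replicates 1 to 3 (adjusted p = 0.571).

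Other GTPases of the GBP, IRG and related families were followed through a list of 22 symbols, of which 17 were in the table and 12 were tested. Most are known as interferon-inducible, but the tested genes Irgq and Irgc1 are relatives not known for it, and Gbp10 and Gm4951 passed the filter on low counts only through the cisplatin libraries. With cisplatin 11 of them rose and 1, Irgq, fell (26.0% and 25.7% of all tested genes), with a median log2 fold change of 4.32. With AU-15330 4 rose and 6 fell (36.2% and 37.2%), and with the combination against cisplatin 0 rose and 11 fell (35.4% and 32.7%), with a median of -4.04. The largest increase with cisplatin was that of Gm4951, an IRG gene near Iigp1, which had 1 count in all DMSO libraries together and 277 with cisplatin, a ratio of 237.1 after scaling (exact 95% interval 42.2 to 9399, counting error only, edgeR adjusted p = 8.59e-11). The largest with AU-15330 was that of Mx2, a dynamin-like antiviral gene that this annotation calls a polymorphic pseudogene (4.03, SE 0.17, adjusted p = 5.29e-17).

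Other IRG genes fell in the combination as well. Tgtp2, a copy of Irgb6, averaged 1.07 CPM with DMSO, 22.3 with cisplatin, 0.205 with AU-15330 and 0.302 with both drugs, a log2 fold change of -6.20 between the combination and cisplatin (SE 0.30, adjusted p = 8.1e-16). Its near copy Tgtp1 fell by 5.95 in that comparison, Gm12250, known as Irgb10 but listed in this annotation as a processed pseudogene, by 2.61 and 9930111J21Rik1 by 4.25. With AU-15330 alone, Tgtp1 fell below DMSO by 3.09 on the log2 scale, Tgtp2 by 2.33 and 9930111J21Rik1 by 2.92, whereas Gm12250 rose by 1.89 (from 0.169 to 0.628 CPM, with overlapping groups). Ifi47, an IRG gene added to the lists after its values were seen, rose with cisplatin (3.00), fell with AU-15330 (-2.72) and fell in the combination against cisplatin (-4.66). Irgc1, the IRG gene known from testis, fell by 4.98 with AU-15330, the largest fall of the list in that comparison. Mx1, the antiviral dynamin-like GTPase, averaged 3.70 CPM with DMSO, 17.3 with cisplatin, 0.120 with AU-15330 and 0.145 with both drugs, and its log2 fold change of -6.85 in the combination against cisplatin was the largest fall of the list.

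By position, the tested GBPs of chromosome 5 had log2 fold changes in the combination against cisplatin of -5.65 for Gbp10, -4.86 for Gbp6, -3.83 for Gbp4, -2.12 for Gbp9 and -2.06 for Gbp8, each called lower, as were 32.7% of all tested genes. Gbp10 passed the filter on low counts only through the cisplatin libraries (311 counts, against 3, 2 and 5 in the other groups). On chromosome 3, Gbp3 and Gbp5 fell too (-1.54 and -0.69), Gbp7 was at -0.06 and Gbp2 rose. These neighbours share sequence and, on chromosome 5, exons (Gbp9 shares 60 exon bases with Gbp4 and with Gbp8), so the genes of a cluster are not independent of each other, and no difference between the clusters was tested.

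**Figure D3:**
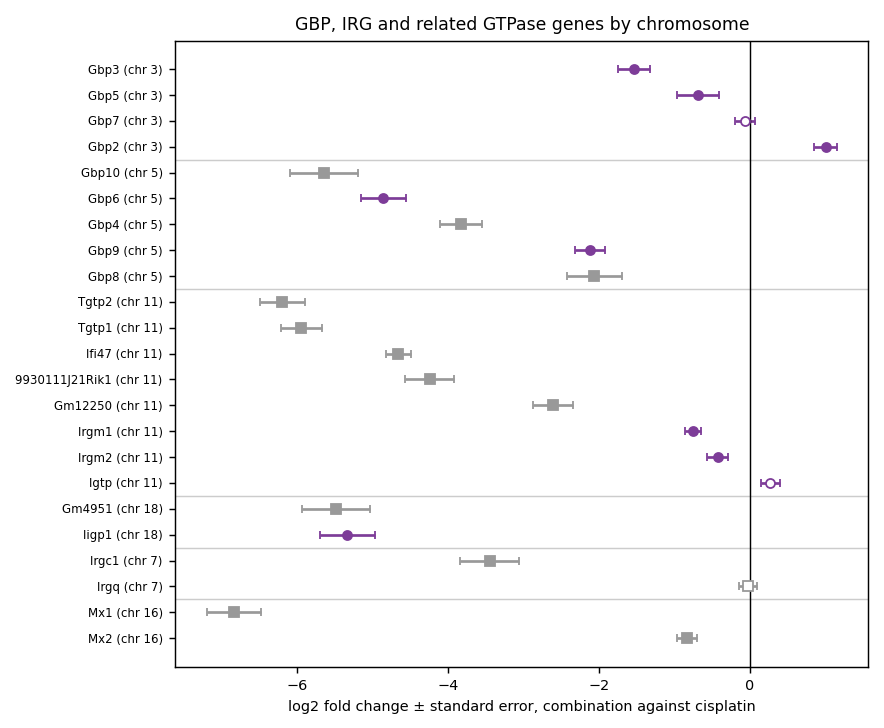
Fitted log2 fold change of GBP, IRG and related GTPase genes in the combination against cisplatin, grouped by chromosome (chr); circles are the 10 genes described here, squares the other tested genes of the families, bars 1 standard error to each side (6 libraries a group), and filled symbols passed the adjusted p threshold of 0.05. On chromosome 5 all values lie at -2.06 or lower, and on chromosome 11 Irgm1, Irgm2 and Igtp lie between -0.75 and 0.27 while the other genes lie at -2.61 or lower. Gbp10, Gm4951 and Iigp1 passed the filter on low counts only through the cisplatin libraries, so they had to be lower in the other groups. Ifi47, on chromosome 11, was added after its values were seen.

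Of the interferons themselves, Ifng had 1 count in all 24 libraries together. Ifnb1, encoding interferon-beta, had 0 counts with DMSO, 2 to 6 per library with cisplatin (24 in all), 2 in all with AU-15330 and 4 with both drugs, and did not pass the filter. Of 22 genes for interferons, receptors and signalling, 18 were tested: 10 rose and 2 fell with cisplatin (26.0% and 25.7% of all tested genes), 9 rose and 5 fell with AU-15330 (36.2% and 37.2%), and 6 rose and 8 fell in the combination against cisplatin (35.4% and 32.7%), where Batf2 passed the filter only through the cisplatin libraries. With either drug alone, the log2 fold changes of the receptor genes ran from -0.62 for Ifnar2 with AU-15330 (edgeR adjusted p = 3.3e-07) to 0.44 for Ifngr1 with cisplatin (adjusted p = 8.4e-07).

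Among the transcription factors, Irf1 averaged 85.0 ± 9.04 CPM (SD, n = 6) with DMSO, 158 ± 8.22 with cisplatin, 489 ± 95.7 with AU-15330 and 437 ± 46.9 with both. It rose by 0.89 with cisplatin, by 2.53 with AU-15330 and by 1.47 in the combination against cisplatin (adjusted p = 1.84e-12). Stat2 rose by 2.57 and 2.08 with the single drugs and fell by 0.61 in the combination against cisplatin (adjusted p = 9.86e-05), and Irf9 rose by 2.47 and 2.82 and was at -0.06 in the combination (adjusted p = 0.507). Irf1 was thus called higher with both drugs than with cisplatin. Among the GTPase genes described here, 1 (Gbp2) was called higher in that comparison, 7 were called lower and 2 passed in neither direction. Of those called lower, Iigp1 passed the filter on low counts only through the cisplatin libraries. Whether Irf1 acts on any of these genes was not tested.

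**Figure D4:**
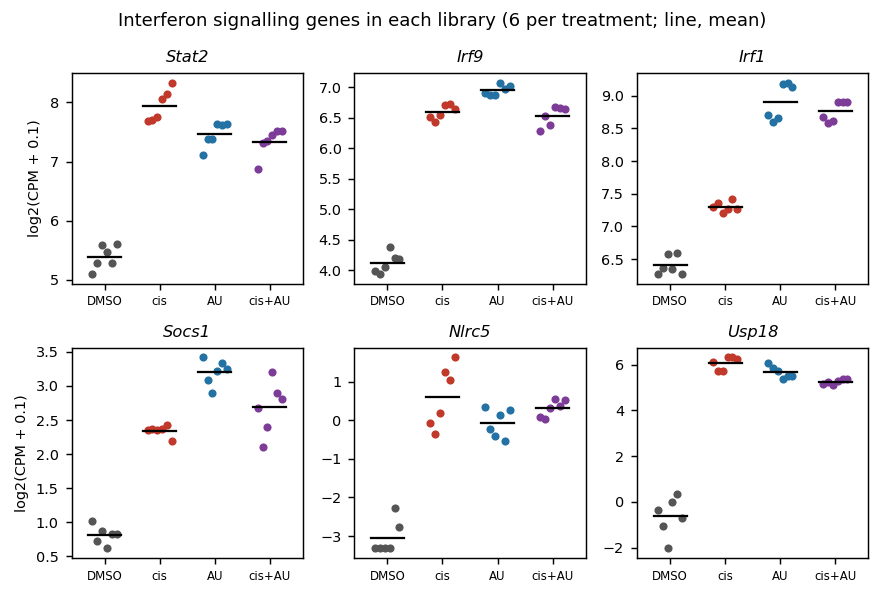
Level of 6 genes of interferon signalling in each of the 24 libraries, as log2(CPM + 0.1), in cells given DMSO, cisplatin (cis), AU-15330 (AU) or both (cis+AU); each point is 1 library, the line is the mean of the 6 plotted values, and the vertical axes differ between genes and do not start at 0. The mean of Irf1 is higher with AU-15330, alone or with cisplatin, than with cisplatin alone, while the mean of Stat2 is highest with cisplatin.

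Nlrc5, an activator of class I antigen presentation genes, rose from 3 counts in all DMSO libraries together to 234 with cisplatin, 113 with AU-15330 and 151 with both, and its combination value against cisplatin was -0.51 (adjusted p = 0.14). Ciita, which activates class II genes, had 5 counts in all with DMSO, 78 with cisplatin, 3 with AU-15330 and 9 with both and was not tested. Socs1, a feedback inhibitor of Jak kinases that is induced by interferon, rose by 1.58 with cisplatin, by 2.46 with AU-15330 and by 0.39 in the combination against cisplatin (adjusted p = 0.0142). Usp18, which restrains the type I receptor, had the largest increase of this list with each drug (6.75 and 6.35) and was at -0.84 in the combination against cisplatin (adjusted p = 1.6e-05). Socs3 had the largest fall with cisplatin (-0.67), and Batf2, an interferon-induced factor that works with Irf1, the largest in the combination against cisplatin (-3.32, with 93 counts in all given cisplatin and 8 given both). Batf2 also had the largest fall with AU-15330, from 11 counts with DMSO to 3, a ratio of 3.98 (exact 95% interval 1.05 to 22.2, counting error only, adjusted p = 0.0375).

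Further lists hold the genes of proteins that GBPs and IRGs work with at membranes, and their counts are to be read against all tested genes, of which 26.0% were called higher and 25.7% lower with cisplatin, 36.2% and 37.2% with AU-15330, and 35.4% and 32.7% in the combination against cisplatin. Of 12 genes of the ATG8 conjugation system, which IRGs and GBPs need to find the vacuole, 1 rose (Atg7, 0.31) and 3 fell with cisplatin (furthest Map1lc3a, -0.42), 6 rose (furthest Gabarapl2, 0.96) and 4 fell with AU-15330 (furthest Map1lc3a, -0.47), and 4 rose (furthest Gabarapl2, 1.36) and 3 fell in the combination against cisplatin (furthest Gabarapl1, -0.30). Of 6 genes for enzymes that attach prenyl lipids to proteins or process the protein ends afterwards, 4 fell with cisplatin. The furthest was Fntb, the beta subunit of farnesyltransferase (-0.90). With AU-15330 1 fell (the processing protease gene Rce1, -0.21), and 1 rose in the combination against cisplatin (Fntb, 0.81). Of 9 genes for ubiquitin ligases and adaptors of the vacuole, 8 were tested. With cisplatin 4 of them rose (furthest Rnf213, 2.18) and 1 fell (Sqstm1, -0.76), and with AU-15330 6 rose (furthest Trim21, 2.82) and 1 fell (Calcoco1, -0.26). In the combination against cisplatin 4 rose (furthest Trim21, 1.2) and 2 fell (furthest Rnf213, -0.77).

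Of 9 genes of inflammasomes and pyroptosis, the processes that GBPs promote in infected cells, 6 were tested. Pycard, Il1b and Casp1 did not pass the filter on low counts, and Pycard and Il1b had at most 1 count in any library. With cisplatin 3 rose (26.0% of all tested genes), furthest the cytokine gene Il18 (3.95, SE 0.37, adjusted p = 1.54e-09), which passed the filter only through the cisplatin libraries. With AU-15330 all 6 fell (37.2% of all), again furthest Il18 (-2.19, adjusted p = 0.00423), and in the combination against cisplatin 4 fell (32.7%), with Il18 at -4.90 (adjusted p = 3.42e-11). Il18 averaged 0.303 CPM with DMSO, 4.71 with cisplatin, 0.0620 with AU-15330 and 0.153 with both drugs. Since it passed the filter only through the cisplatin libraries, it had to be lower in the other groups.

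Across all tested genes, the 5 whose log CPM followed the mean standardised log CPM of the 10 GTPase genes most closely over the 24 libraries were Mx2 (Pearson r = 0.988), Ifit1 (0.981), Bst2 (0.980), Daxx (0.979) and Ifit2 (0.976). The 24 points share the 4 treatments, so these values describe the likeness over treatments and carry no test. Mx2 averaged 0.971 CPM with DMSO, 35.3 with cisplatin, 15.8 with AU-15330 and 19.9 with both drugs. Ifit1, an antiviral RNA-binding gene, averaged 0.921, 211, 25.2 and 42.4 CPM in the same order. The antiviral tetherin gene Bst2 averaged 8.68, 177, 89.9 and 85.2 CPM.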

How the data were processed

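Poly(A) RNA of the 24 libraries had been prepared with a directional kit and sequenced, and per the labels the reads were aligned with STAR 2.7.1a to mm10. The submitters' notes also name DESeq2 1.36.0. The deposited values are raw read counts per gene symbol, made by the authors, and the counting tool, strand setting and annotation are not given in the sources used here. The 48 columns, 2 lanes for each library, were all matched to libraries by name (0 left over), and lanes were summed. Low-count genes were removed by filterByExpr, which left 12941, and TMM factors were computed. The 4 group means were fitted to all libraries at once in edgeR 4.0.16 (R 4.3.3), and contrasts were tested by quasi-likelihood F (20 residual degrees of freedom). P-values were adjusted by Benjamini-Hochberg over all tested genes, with a threshold of 0.05. CPM values use TMM-scaled totals, and log CPM a prior count of 2. A group without counts was given a floor of 3 counts, which covers counting error only. The labels give the cisplatin dose printed here, and the methods of the study give another, so the dose is that of the labels.

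The genes and lists were chosen with earlier results of these data known. Named are all 10 GTPase genes, in each other list the largest called increase and decrease with cisplatin, with AU-15330 and in the combination against cisplatin, further GTPases, fixed regulators (Stat2, Irf1, Irf9, Ifng, Ifnb1, Nlrc5, Ciita and Socs1, with 1 further gene not reported here) and the 5 genes most alike in pattern. Further genes (Ifi47, the receptors, the untested inflammasome genes, the cell markers) were named after their values were seen. DESeq2 1.42.0, other scalings, filters, a fold threshold, a replicate block, single pairs of groups and left-out replicates served as alternatives. Scripts were tested on simulated data.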

Additional observations from a re-analysis of the deposited data

Results flagged for a closer look

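In the libraries given AU-15330, replicate 1 had the highest Gbp3 level, 17.4 CPM where the others ran from 7.62 to 9.50, with a gap of 0.809 of the group's range. In the combination, replicate 1 had the lowest Irgm2 level, 49.6 CPM where the others ran from 69.4 to 78.3, with a gap of 0.688. Both gaps are beyond Dixon's 95% critical value for 6 samples. Of the 38 groups of 6 libraries examined, 2 were beyond it, and chance alone gives about 1.9.

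The effect of AU-15330 differed between cells with and without cisplatin for all 10 genes, tested as the interaction in the edgeR fit. On the log2 scale the difference was -4.37 for Gbp2, -5.81 for Gbp3, -6.20 for Gbp5, -5.30 for Gbp6 and -3.77 for Gbp7. It was -5.23 for Gbp9, -3.35 for Irgm1, -4.38 for Irgm2, -3.89 for Igtp and -8.89 for Iigp1. The values of Gbp5 and Iigp1 rest on 0 counts in DMSO and depend on the prior count. Iigp1 passed the filter on low counts only through the cisplatin libraries, which favoured a negative value.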

How the results depend on the processing

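Of the recomputed values of single genes in the comparisons, 1053 kept their direction and their side of the threshold, 42 lost the call, 8 gained one and 3 changed sign. The calls of cisplatin against DMSO (10 higher, 0 lower) and the interaction (10 lower) were kept under every alternative run. The count of genes higher in the combination than with cisplatin, 1 in the report, was 2 with library totals only, 2 with the replicate block and 2 with replicates 1 to 3 alone, and 1 to 2 when a replicate was left out. A required fold change above 1.5 left 4 genes lower in the combination than with cisplatin, 2 higher and 0 lower than with AU-15330, and 0 higher with AU-15330 than with cisplatin. With replicates 1 to 3 alone, 3 genes were higher in the combination than with AU-15330 and 3 higher with AU-15330 than with cisplatin. Gbp7 in the combination against cisplatin was 0.0046 with library totals only (adjusted p = 0.978), 0.15 with replicates 1 to 3 alone (0.571) and -0.30 with replicates 4 to 6 alone (0.00927). Irgm2 with AU-15330 against cisplatin was 0.47 with replicates 1 to 3 alone (0.0112) and -0.15 with replicates 4 to 6 alone (0.084). The causes were not tested, other than the fold threshold, which drops small changes by construction.

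Replicate numbers are shared between groups, but same-numbered libraries deviated together only in part (mean correlation 0.145, from -0.133 to 0.483, above 0.1 in 23 of 36 pairs), and 10 of 24 libraries were most like their own number. The replicate block changed 1 call in the combination against cisplatin, that of Igtp (0.29, edgeR adjusted p = 0.0288), and no other call of these genes. Library totals only moved the median of all genes by up to 0.14 on the log2 scale (combination against DMSO) and the calls of cisplatin against DMSO over all genes from 3360 higher and 3329 lower to 3977 and 2529, and those of the interaction from 2313 and 2048 to 1791 and 2506. Depth limits Iigp1 outside the cisplatin group, Gbp5 and Gbp10, which rest on few counts.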
